A study of Mus musculus with 4 samples.

Results

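The genes described here make sterols and fatty acids. They were chosen by name: 34 genes were listed, 24 for the sterol pathway and its regulators and 10 for fatty acid synthesis and desaturation, and a gene entered with every probe set annotated to its symbol alone. Of the 34, 32 were measured, among 12393 genes on the array, with 63 probe sets in all. The sterol genes comprised 17 enzymes and 5 regulators. Signals of Acat2 and Insig1 are not analysed here, and both enter only the counts of promoter motifs. RNA from the dentate gyrus of C57Bl/6 mice was hybridised to the Affymetrix Mouse Genome 430A 2.0 array, and the mice were bought at 8 weeks of age. There were 4 groups with 1 array each. The 11 ECS mice were dissected 1 h after the last of 11 sessions of electroconvulsive stimulation (ECS). The 10 ECS mice were dissected 48 h after the last of 10 sessions and the single ECS mice 1 h after their only session. The sham mice were dissected 1 h after 1 session of handling without a current. Each array held RNA pooled from 3 mice. In a session, 25 mA were passed through ear clips under isoflurane for 1 s, as 100 pulses per s of 0.5 ms each, and repeated sessions came at 4 per week over no more than 3 weeks. By the study's account the 10 ECS mice had a sham session 1 h before dissection, and sham mice were treated like ECS mice except for the shock. Mice with earlier ECS thus also had more sessions of handling and isoflurane than those without. The currents of those sessions cannot be told apart from the handling and isoflurane. Groups follow the sample titles, since the descriptions of 3 samples name a treatment that conflicts with their titles.

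Cholesterol does not cross the blood-brain barrier in useful amounts, so the brain makes its own, from acetyl-CoA through mevalonate, isoprenoid diphosphates, squalene and lanosterol. The same acetyl-CoA feeds fatty acid synthesis. Membrane-bound transcription factors, the SREBP proteins, are carried by Scap from the endoplasmic reticulum to the Golgi and cleaved there when sterols are low, and the freed parts bind the promoters of genes of both pathways. Such sites usually lie beside sites for the factors NF-Y, which binds CCAAT boxes, and Sp1, which binds GC boxes.

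The upstream sequences of 8 enzymes are shown because these enzymes had the highest ratios of 10 ECS over sham among the members with 1 annotated start window. RefSeq windows of 300 bases, 250 before and 50 after a start on GRCm38.p6, were at hand for 27 of the 34 genes. The 200 bases before the start are printed on the strand of the gene, and they end at the base next to the annotated gene. Capitals mark the SRE-like motif TCACNCCA and CCAAT boxes, which read CCAAT, or ATTGG where the box lies on the other strand.
Tm7sf2 chr19:6067851-6068050 (- strand): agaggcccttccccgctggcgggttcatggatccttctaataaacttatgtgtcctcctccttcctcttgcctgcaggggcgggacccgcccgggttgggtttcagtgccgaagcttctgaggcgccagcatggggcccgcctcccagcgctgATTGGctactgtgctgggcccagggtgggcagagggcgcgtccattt
Mvd chr8:122443423-122443622 (- strand): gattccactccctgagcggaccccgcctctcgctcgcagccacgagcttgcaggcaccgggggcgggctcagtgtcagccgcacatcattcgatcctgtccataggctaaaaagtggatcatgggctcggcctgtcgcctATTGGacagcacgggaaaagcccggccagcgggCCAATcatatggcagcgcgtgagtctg
Hmgcs1 chr13:119690151-119690350 (+ strand): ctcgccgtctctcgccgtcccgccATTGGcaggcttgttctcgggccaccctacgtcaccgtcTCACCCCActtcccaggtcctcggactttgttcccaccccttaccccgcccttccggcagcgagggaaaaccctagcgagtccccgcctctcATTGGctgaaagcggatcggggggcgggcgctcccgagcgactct
Idi1 chr13:8885406-8885605 (+ strand): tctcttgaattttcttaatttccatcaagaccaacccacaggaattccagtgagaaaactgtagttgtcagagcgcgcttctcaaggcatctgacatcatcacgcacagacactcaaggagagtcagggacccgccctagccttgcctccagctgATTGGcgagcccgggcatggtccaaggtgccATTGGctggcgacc
Cyp51 chr5:4104698-4104897 (- strand): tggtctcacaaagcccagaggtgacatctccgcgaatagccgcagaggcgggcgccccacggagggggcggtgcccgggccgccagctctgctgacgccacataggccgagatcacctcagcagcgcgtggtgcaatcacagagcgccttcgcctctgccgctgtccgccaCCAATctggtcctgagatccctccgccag
Sc5d chr9:42264301-42264500 (- strand): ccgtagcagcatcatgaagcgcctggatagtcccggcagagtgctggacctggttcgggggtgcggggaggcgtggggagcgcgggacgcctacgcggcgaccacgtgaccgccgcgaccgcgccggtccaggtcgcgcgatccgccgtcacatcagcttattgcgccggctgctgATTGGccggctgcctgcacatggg
Msmo1 chr8:64733579-64733778 (- strand): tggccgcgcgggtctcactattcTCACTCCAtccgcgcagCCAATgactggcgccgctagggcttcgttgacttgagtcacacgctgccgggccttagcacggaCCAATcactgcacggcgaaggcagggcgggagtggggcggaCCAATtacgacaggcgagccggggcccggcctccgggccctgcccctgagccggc
Nsdhl chrX:72918321-72918520 (+ strand): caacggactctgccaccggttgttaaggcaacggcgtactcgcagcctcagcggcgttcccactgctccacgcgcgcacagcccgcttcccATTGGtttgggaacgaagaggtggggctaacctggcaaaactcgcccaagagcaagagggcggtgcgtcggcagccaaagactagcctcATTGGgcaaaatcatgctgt

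CCAAT boxes were common in these windows. Searched on both strands, at least 1 CCAAT was found in 14 of 15 sterol enzymes with a window, in 4 of 5 sterol regulators and in 4 of 7 fatty acid genes, against 42.7% of the 8412 genes with a ratio on the arrays and 37.4% of all 32851 windows. The enzyme with no match was Acat2. In Hmgcs1, boxes ran at -237, -176 and -45 relative to the start and at 11 inside the gene. The box of Tm7sf2 lay at -47, the first box of Idi1 at -45 and that of Sc5d at -24. The SRE-like motif was found in Hmgcs1 at -137, in Msmo1 at -177 and in Srebf2 at -162, that is in 3 of 20 sterol genes and 0 of 7 fatty acid genes, against 4.6% of genes with a ratio. None of these 3 matches overlapped a CCAAT box. The GC box GGGCGG was found in 19 of 20 sterol genes and 4 of 7 fatty acid genes, against 66.3% of genes with a ratio. Genes with several windows were counted once, with a match in any window. A match describes the letters and shows no binding.

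**Figure D1:**
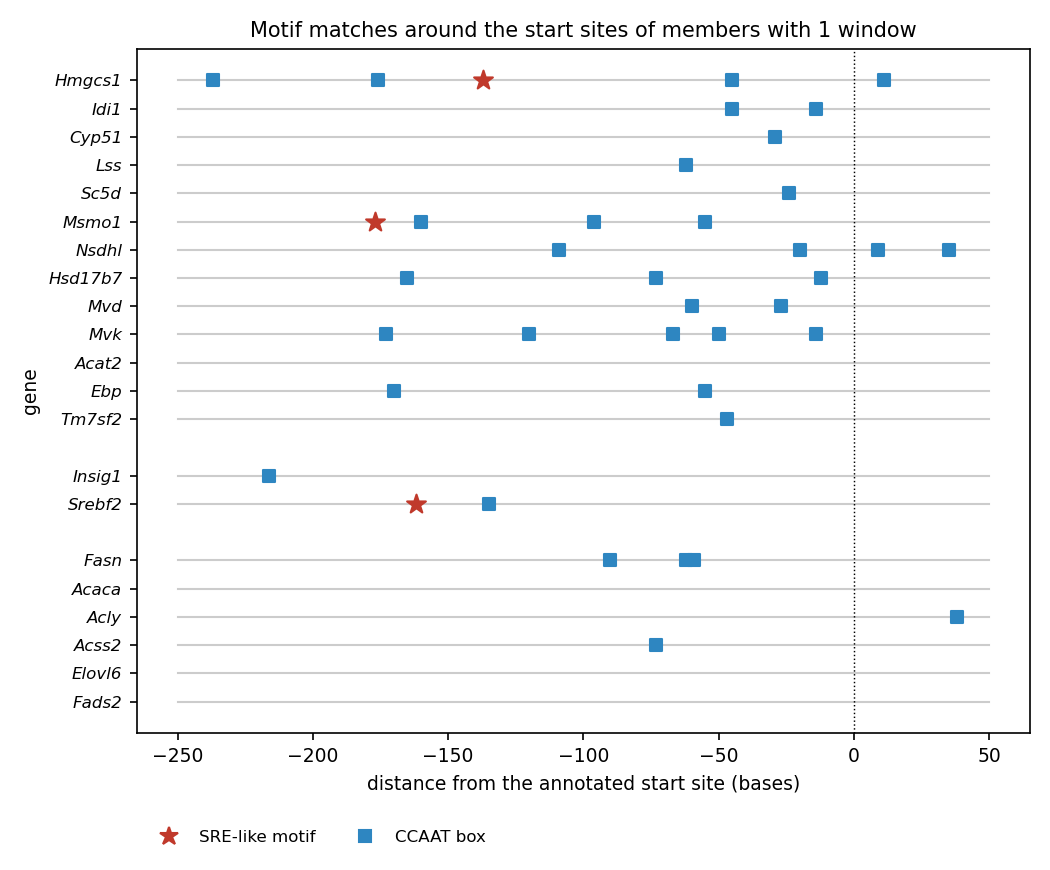
Matches of the SRE-like motif (stars) and of CCAAT boxes (squares) by distance in bases from the annotated start site, for members with 1 window, on a line for each gene from 250 bases before to 50 after the start. CCAAT boxes appear in every measured sterol enzyme drawn, while only Hmgcs1, Msmo1 and Srebf2 carry a star.

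The 4 arrays differed in overall brightness. Their median signals were 56.7 units for 11 ECS, 62.4 for 10 ECS, 56.3 for single ECS and 69.3 for sham. The median log2 ratio of all genes, as deposited, was -0.24 for single ECS over sham, -0.11 for 11 ECS over 10 ECS, -0.14 for 10 ECS over sham and 0.00 for 11 ECS over single ECS. Ratios below are therefore centred: the median of all genes in the same comparison was subtracted, so that 0 is the typical gene. Signals are MAS5 signal units as deposited, each gene is read from its brightest probe set, and a gene is called higher or lower when it lies at least 1.5-fold from that median (0.58 on the log2 scale). With 1 array a group there is no test and no spread within a group. The only error that could be had is the SD of centred ratios between probe sets of 1 gene, 0.27 to 0.28 in the 4 comparisons over 3490 genes, which covers probe sets and neither arrays nor mice. All 32 members were above the floor of 12 units on all 4 arrays.

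At 48 h after a course of ECS, the sterol enzymes were the members farthest from sham. Of the 22 sterol genes, 18 lay above the median of all genes, which divides all genes evenly, and their median centred log2 ratio was 0.45. The called genes numbered 6 of 22 at 1.5-fold higher, against 4.75% of 10202 genes, and 0 at 1.5-fold lower, against 4.26%. At a looser limit of 0.32 on the log2 scale there were 13 higher, 11 enzymes with Srebf2 and Stard4, against 12.2% of all genes, and 1 lower, Srebf1, against 12.5%. The quartiles of all genes were -0.17 and 0.16. The 17 enzymes alone had a median of 0.56, with 16 above 0, and the 5 regulators a median of -0.03. Without centring, 17 of 22 sterol genes still lay above 0, against 28.5% of all genes, the median was 0.32 and 1 gene was called higher, against 2.94%.

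Of the mevalonate steps, Hmgcs1 and Mvd passed the 1.5-fold limit in 10 ECS over sham. Hmgcs1 is the cytosolic HMG-CoA synthase, and its brightest probe set read 3337 units after 10 ECS, against 2315 in sham, and 3141 after 11 ECS, against 2378 after a single ECS. Both arrays with earlier ECS thus read above both without. The centred log2 ratio was 0.66 for 10 ECS over sham, above that of 96.4% of all genes, and 0.40 for 11 ECS over single ECS. Its other 3 probe sets gave 0.57, 0.82 and 0.86 for 10 ECS over sham. Mvd, the mevalonate diphosphate decarboxylase, was much dimmer, with 88.2 units after 10 ECS, against 60.7 in sham (0.67), and 67.3 after 11 ECS, against 64.1 after a single ECS (0.07). Its second probe set gave 0.40 for 10 ECS over sham. Mvk, mevalonate kinase, read 95.7 units after 10 ECS, against 84.4 in sham (0.32), and 90.4 after 11 ECS, against 69.3 after a single ECS (0.38). A dimmer Mvk probe set, at 20.8 to 48.9 units, gave 0.93 for 10 ECS over sham but -0.26 for 11 ECS over single ECS. Pmvk, the kinase after Mvk, lay near the median of all genes in 10 ECS over sham, at -0.03. It read 178 units after 10 ECS, against 200.4 in sham.

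The isoprenoid and squalene steps behaved alike in 10 ECS over sham. Idi1, the isopentenyl diphosphate isomerase, read 568 units after 10 ECS, against 409 in sham (0.61), and 666 after 11 ECS, against 548 after a single ECS (0.28). Its second probe set gave 0.65 and 0.02 in the same order. Fdps, farnesyl diphosphate synthase, read 431 units after 10 ECS, against 289.6 in sham (0.71), but 319 after 11 ECS, against 317 after a single ECS (0.01). The Fdps signal on the 10 ECS array stood above the other 3. Fdft1, squalene synthase, read 1046 units after 10 ECS, against 733 in sham (0.65), and 983 after 11 ECS, against 759 after a single ECS (0.37). A second Fdft1 probe set read 400.4 units after 10 ECS, against 293 in sham (0.59), and 356.5 after 11 ECS, against 256.7 after a single ECS (0.47). Sqle, squalene epoxidase, read 636 units after 10 ECS, against 510 in sham (0.45), and 630 after 11 ECS, against 513 after a single ECS (0.30). For Hmgcs1, Fdft1 and Sqle both arrays with earlier ECS read above both without, and in units as deposited single ECS lay close to sham. With each array scaled to the same median, single ECS lay above sham in all 3, at -0.10, -0.08 and -0.04 in the order named, against -0.43, -0.42 and -0.33 in sham, on the log2 scale relative to the mean of the gene over the arrays.

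From the formation of lanosterol to cholesterol the enzymes split. Tm7sf2, a sterol reductase, had the highest member ratio in 10 ECS over sham, with 155 units after 10 ECS, against 99.6 in sham (0.77), a ratio above that of 97.6% of all genes. It read 125 units after 11 ECS, against 110 after a single ECS (0.18). On both arrays with earlier ECS it lay above both without, more so at 48 h. Cyp51, the lanosterol demethylase, read 325 units after 10 ECS, against 238 in sham (0.58), a fold of 1.497 and so just short of the limit. Sc5d, a sterol desaturase, read 297 units after 10 ECS, against 218 in sham (0.58, or 1.494-fold). Msmo1, the methylsterol oxidase, read 817 units after 10 ECS, against 607 in sham (0.56). Sham was the lowest of the 4 arrays for Cyp51, Sc5d and Msmo1. Nsdhl, a dehydrogenase of sterol demethylation, read 316.5 units after 10 ECS, against 237.7 in sham (0.55). Just inside the limit stood Idi1, at 1.523-fold. The remaining 4 were nearer the typical gene, with centred ratios of 0.18 for Ebp, the sterol isomerase, 0.17 for Lss, lanosterol synthase, 0.15 for Hsd17b7, a ketosteroid reductase of demethylation, and 0.09 for Dhcr7, the last reductase before cholesterol. Dhcr7 read 219.5 units after 10 ECS, against 226 in sham.

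The regulators were mixed in 10 ECS over sham, with Stard4 and Srebf2 past the looser limit in the direction of the enzymes and Srebf1 past it in the other. Srebf1, which encodes SREBP forms tied mainly to fatty acid genes in liver, read 209 units after 10 ECS, against 299.9 in sham, and its centred ratio of -0.39 was the lowest of the 32 members. It read 237 units after 11 ECS, against 232 after a single ECS. Sham was thus the highest of the 4 arrays for Srebf1. Srebf2, which encodes the SREBP tied mainly to sterol genes, read 155 units after 10 ECS, against 135 in sham (0.34), and 139 after 11 ECS, against 149 after a single ECS (-0.11). A second Srebf2 probe set, at 114.6 to 155.8 units, gave 0.24 and 0.19 in the same order. Insig2 holds Scap in the endoplasmic reticulum. In both comparisons of mice with and without earlier ECS its brightest probe set lay below the median of all genes. That probe set read 414 units after 10 ECS, against 523 in sham (-0.20), and 361 after 11 ECS, against 411 after a single ECS (-0.19). Neither ratio reached the looser limit. A second Insig2 probe set gave -0.20 and -0.16 in the same order, and the dimmest gave -0.09 and 0.03. Scap read 520.5 units after 10 ECS, against 583.5 in sham (-0.03). Stard4, a carrier of sterols between membranes, read 112 units after 10 ECS, against 89.8 in sham (0.46), and 78.6 after 11 ECS, against 77.5 after a single ECS (0.02).

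The fatty acid genes shifted less, each read from its brightest probe set. All 10 lay above the median of all genes in 10 ECS over sham, but 0 of 10 were 1.5-fold higher, against 4.75% of all genes, and the median was 0.22. Without centring the median was 0.0845 and 7 of 10 lay above 0, against 28.5% of all genes. Acss2, which makes acetyl-CoA from acetate, had the highest ratio, with 460 units after 10 ECS, against 360 in sham (0.49), and 373 after 11 ECS, against 315 after a single ECS (0.24). Scd1, a stearoyl-CoA desaturase, read 880 units after 10 ECS, against 755 in sham (0.36), and 786 after 11 ECS, against 709 after a single ECS (0.15). Elovl6, which lengthens palmitate, read 381 units after 10 ECS, against 333.5 in sham (0.33). These 3 of 10 passed the looser limit, against 12.2% of all genes. Scd2, a second desaturase, read 5871 units after 10 ECS, against 5426 in sham (0.25). On this probe set Scd2 was close to flat in units, and part of its ratio is the centring. Me1, the malic enzyme that yields NADPH, had a ratio of 0.31. Fasn, fatty acid synthase, read 668 units after 10 ECS, against 643 in sham (0.19), and Acly, the citrate lyase that yields cytosolic acetyl-CoA, 888.5 units after 10 ECS, against 862.5 in sham (0.18). None of these passed the looser limit on its brightest probe set. Fads1 and Fads2, the desaturases of polyunsaturated fatty acids, had 0.12 each. Acaca, acetyl-CoA carboxylase, was dim, with 20.1 units after 10 ECS, against 21.3 in sham (0.05). The counts rest on the brightest probe sets. Dimmer ones above the floor gave 0.77 and 0.41 for Scd2, 0.76 and 0.11 for Acly and 0.64 for Scd1. Others gave 0.30 for Acss2, 0.25 for Fads2, -0.01 for Elovl6 and -0.56 for Me1.

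Several probe sets of a gene gave a partial repeat of each reading. Of 63 member probe sets, 57 were above the floor on all 4 arrays, and 19 members had more than 1 such probe set. In 10 ECS over sham, all probe sets of a gene had the same sign in 11 of 12 sterol genes and in 5 of 7 fatty acid genes. The sterol exception was Sc5d, whose dimmer probe set read 26.2 units after 10 ECS, against 32.1 in sham (-0.16). In Me1 the dimmer probe set read 119 units after 10 ECS, against 194 in sham (-0.56), opposite to the brighter one. The dimmer Elovl6 probe set gave -0.01. Fewer sterol genes had probe sets of the same sign in the other comparisons. There were 8 of 12 in single ECS over sham, 6 in 11 ECS over single ECS and 4 in 11 ECS over 10 ECS. Of the 7 fatty acid genes there were 4, 5 and 4, in the same order. The pooled SD between probe sets was 0.25 in the 19 members, so a single ratio of 0.2 is within it. The sterol enzyme ratios near 0.6 exceed it, but for Sc5d alone the SD was 0.52. Since this SD covers neither arrays nor mice, it gives no error for a difference between arrays.

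**Figure D2:**
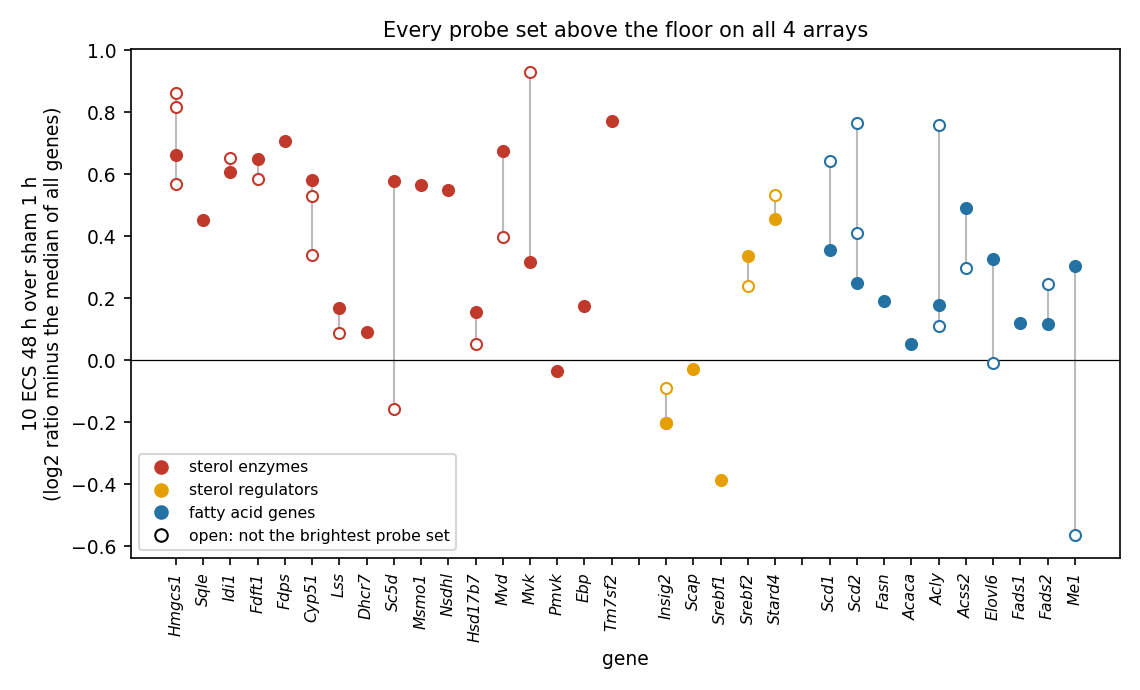
Centred log2 ratio of 10 ECS over sham for every member probe set above the floor on all 4 arrays, with a filled point for the brightest probe set of a gene and open points for the others, joined by a grey line. The 4 probe sets of Hmgcs1 lie between 0.57 and 0.86, whereas the probe sets of Me1 lie on both sides of 0.

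The second comparison of mice with and without earlier ECS, 11 ECS over single ECS, uses the other 2 arrays. Here 18 of 22 sterol genes lay above the median of all genes, and the median centred ratio was 0.16 for all sterol genes and 0.28 for the enzymes. None of the 22 was called at 1.5-fold, against 4.34% of 9971 genes called higher and 4.31% called lower. At the looser limit 6 were higher, against 12.6%, and 0 lower, against 12.7%. These were Dhcr7 (0.42), Hmgcs1 (0.40), Msmo1 (0.40), Mvk (0.38), Fdft1 (0.37) and Lss (0.32), all enzymes. Dimmer probe sets above the floor gave -0.26 for Mvk and 0.004 for Lss. Those of Hmgcs1 (0.37 to 0.47) and Fdft1 (0.47) passed the looser limit. The Dhcr7 signal was 202 units after 11 ECS, against 151 after a single ECS, and the single ECS array was the lowest of the 4 for this gene. Lss read 140 units after 11 ECS, against 112 after a single ECS, and Msmo1 906 units after 11 ECS, against 687 after a single ECS. The fatty acid genes had a median of 0.05, with 7 of 10 above 0 and 0 past the looser limit.

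Above the median in both of these comparisons, which have no array in common, were 15 of 17 sterol enzymes, 1 of 5 regulators and 7 of 10 fatty acid genes, against 29.9% of 9724 genes. Hmgcs1, Fdft1 and Msmo1 passed the looser limit in both, 3 of 22 sterol genes, against 3.84% of genes. With each array scaled to the same median, both arrays with earlier ECS read above both without in 10 of 17 sterol enzymes (Hmgcs1, Sqle, Fdft1, Lss, Dhcr7, Msmo1, Nsdhl, Mvd, Mvk and Tm7sf2) and in Stard4, against 16.1% of 10449 genes. The same held for 5 of 10 fatty acid genes, Scd1, Scd2, Acly, Acss2 and Elovl6. The mirror order, with both below, was found in Insig2 alone, against 17.6% of genes. In the signals as deposited, both arrays with earlier ECS again read above both without in 10 enzymes, with Idi1 and Fdps in place of Lss and Dhcr7, and in 3 fatty acid genes, Scd1, Fasn and Acss2, but in no regulator, against 8.72% of genes. The mirror order was then found in Pmvk and Fads2 and not in Insig2, against 19.4%.

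**Figure D3:**
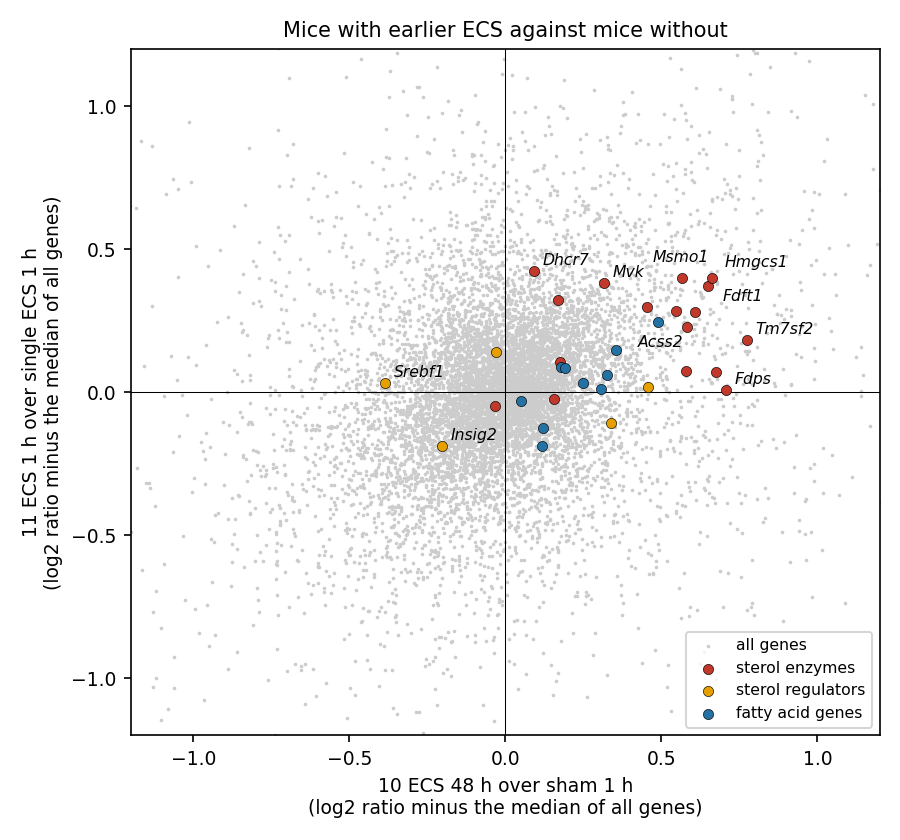
Centred log2 ratio of 10 ECS over sham (x axis) and of 11 ECS over single ECS (y axis) for all genes (grey) and the sterol enzymes, sterol regulators and fatty acid genes (coloured), of which 10 are named. Of 9724 genes, 145 lie outside the axes; 15 of 17 sterol enzymes lie right of and above 0.

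One hour after a single ECS, the sterol genes divided. The median of the 22 was 0.26, with 16 above the median of all genes, but without centring it was 0.023, with 12 above 0, against 19.4% of all genes. At 1.5-fold 3 were higher, against 5.84% of 10133 genes, and 0 lower, against 5.75%, and without centring 1 was higher, against 3.05%, and 1 lower, against 15.3%. Cyp51 was the farthest, with 365 units after a single ECS, against 238 in sham (0.86, above 97.2% of all genes). Its 2 dimmer probe sets gave 0.96 and 0.83. Sc5d read 298 units after a single ECS, against 218 in sham (0.69), while its dimmer probe set read 25.5 units after a single ECS, against 32.1 in sham (-0.09). Idi1 read 548 units after a single ECS, against 409 in sham (0.66), and its second probe set gave 0.55. On the brightest probe sets of all 3 genes sham was the lowest of the 4 arrays. At the other end stood Dhcr7, with 151 units after a single ECS, against 226 in sham (-0.35), and Lss, with 112 units after a single ECS, against 154 in sham (-0.22). Ebp (0.43), Msmo1 (0.42), Tm7sf2 (0.38), Srebf2 (0.38) and Fdps (0.37) were the others past the looser limit, 8 of 22 in all, against 14.2%. Of the 22, only Dhcr7 passed it in the lower direction, against 16.7% of all genes. Hmgcs1 had a ratio of 0.28, and all 4 of its probe sets lay above 0.

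The 10 fatty acid genes had a median of 0.17 in single ECS over sham, with 9 above the median of all genes, but without centring it was -0.067 with 2 above 0, against 19.4% of all genes. Fasn read 649.5 units after a single ECS, against 643 in sham (0.26), and Fads2 300.6 units after a single ECS, against 298.7 in sham (0.25), so their signals as deposited were nearly equal and the centred ratios are mostly the shift of all genes. Acaca, at 14.1 units after a single ECS, against 21.3 in sham (-0.36), passed the looser limit in the lower direction.

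In mice with 10 earlier sessions, the centred medians of both lists lay nearer 0 after the 11th ECS than after a single ECS. Without centring both lay farther from 0. The sterol median was then -0.098, against 0.023 in single ECS over sham, and the fatty acid median -0.16, against -0.067. For 11 ECS over 10 ECS the sterol median was 0.01, with 12 of 22 above the median of all genes, and it was -0.098 without centring and -0.028 with quantile normalization. At 1.5-fold 0 were higher, against 4.99% of 10046 genes, and 0 lower, against 4.57%. Cyp51 again had the highest ratio, with 428 units after 11 ECS, against 325 after 10 ECS (0.50). Ebp read 303 units after 11 ECS, against 254 after 10 ECS (0.36), and Idi1 666 units after 11 ECS, against 568 after 10 ECS (0.34). These 3 passed the looser limit on their brightest probe sets, against 12.8% of genes. The second Idi1 probe set gave -0.07. Stard4 and Fdps passed the looser limit in the lower direction, against 13.7% of genes. Stard4 read 78.6 units after 11 ECS, against 112 after 10 ECS (-0.41), and Fdps 319 units after 11 ECS, against 431 after 10 ECS (-0.33). A dimmer Stard4 probe set, at 17.6 to 25.5 units, gave 0.21. The fatty acid median was -0.06, with 1 of 10, Fasn, above 0 under each of the 3 scalings. Acaca read 13.8 units after 11 ECS, against 20.1 after 10 ECS (-0.44).

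**Figure D4:**
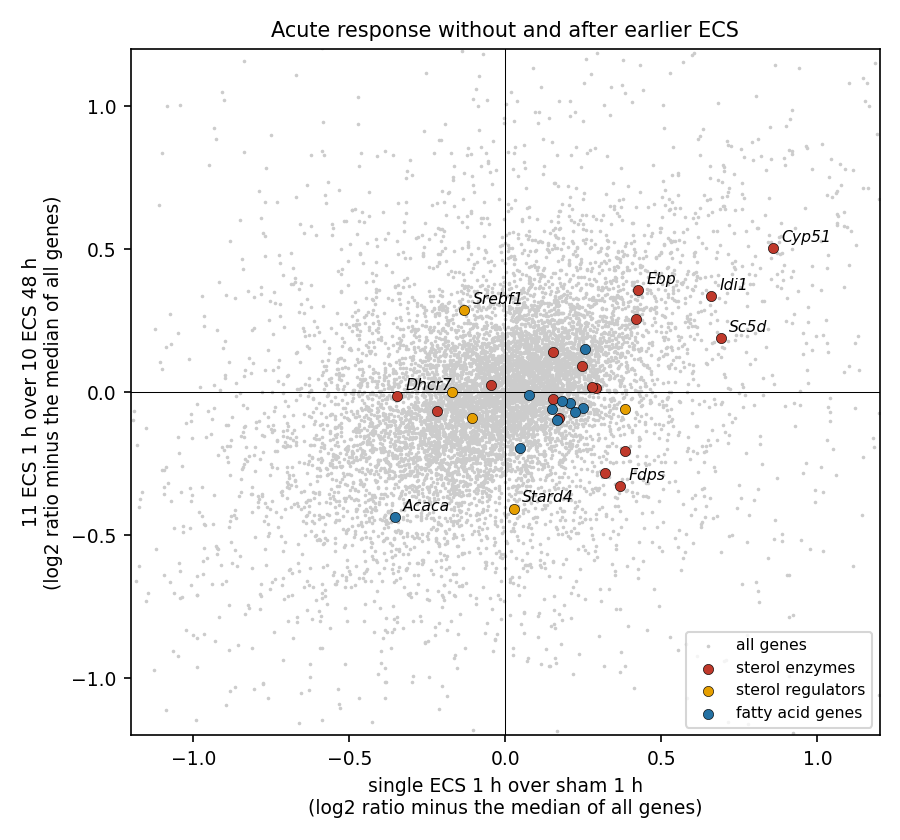
Centred log2 ratio of single ECS over sham (x axis) and of 11 ECS over 10 ECS (y axis) for all genes (grey) and the sterol and fatty acid genes (coloured), of which 9 are named. Cyp51 (0.86 and 0.50) lies highest among members on both axes, and Fdps lies right of 0 and below it (0.37 and -0.33). Of 9730 genes, 221 lie outside the axes.

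The difference of the responses, 11 ECS over 10 ECS minus single ECS over sham, had a median of -0.22 over the 22 sterol genes and -0.23 over the 10 fatty acid genes, against 0.00 over all genes. It was below 0 in 16 of 22 sterol genes, 14 of them enzymes, and in 10 of 10 fatty acid genes, against 4849 of 9730 genes. Without centring, 8 of 22 sterol and 3 of 10 fatty acid genes were above 0, against 69.6% of all genes, and the medians were -0.084 and -0.0945, against 0.13 over all genes. The farthest were Fdps (-0.70), Mvd (-0.60), Tm7sf2 (-0.59) and Sc5d (-0.50). Srebf1 (0.42) and Dhcr7 (0.33) were the highest. Since it equals 11 ECS over single ECS minus 10 ECS over sham, the same values say that the difference after earlier ECS was smaller in the freshly stimulated pair. It uses all 4 arrays and has no repeat.

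Seen over the 4 arrays, the sham array stood lowest. Scaled to the same median, sham was the lowest array in 14 of 17 sterol enzymes and 9 of 10 fatty acid genes, against 32.8% of all genes, and in 2 of 5 regulators. The highest array was 11 ECS in 10 enzymes, against 23.8% of all genes, 10 ECS in 5, against 21.6%, and single ECS in 2, against 31.5%. For the fatty acid genes 10 ECS was highest in 6 of 10. As deposited, the order of the top arrays turned, with 10 ECS highest in 10 enzymes, against 20.3% of all genes, and 11 ECS in 5, against 10.3%. As deposited, sham was lowest in 11 of 17 enzymes, against 5.57% of all genes, but in 1 of 10 fatty acid genes, so the place of the sham array depends on the scaling for the fatty acid genes, and which array was highest depends on it for the enzymes.

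**Figure D5:**
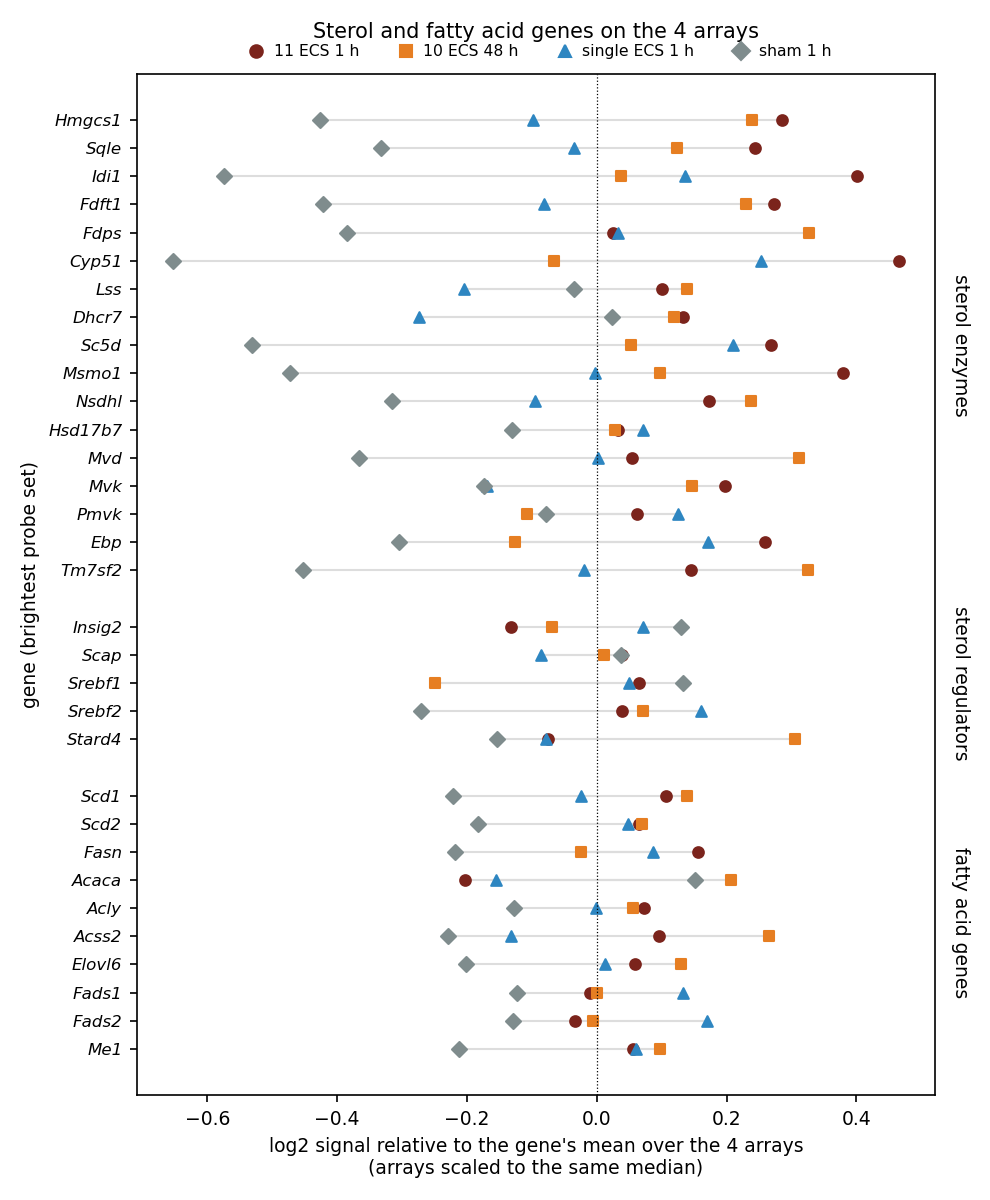
Log2 signal of the 32 measured members on the 11 ECS, 10 ECS, single ECS and sham arrays, relative to the mean of the gene over the 4 arrays, with array medians made equal. The grey diamonds of sham lie leftmost in 14 of 17 sterol enzymes, and in Hmgcs1, Fdft1 and Sqle the 11 ECS and 10 ECS points lie right of those of single ECS and sham.

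Other genes of lipid handling gave a comparison. Of 11 measured genes of sterol export and turnover, 7 lay above the median of all genes in 10 ECS over sham, with a median of 0.05. In the same comparison 13 other fatty acid synthesis genes had a median of -0.02 with 6 above 0, and 10 fatty acid oxidation genes had a median of 0.00 with 5 above 0. The only measured gene of a list of SREBP processing genes was Mbtps1. Mbtps1, a Golgi protease that cleaves the SREBP proteins, read 414.5 units after 10 ECS, against 528 in sham (-0.22), and 296.5 after 11 ECS, against 320 after a single ECS (-0.11). Cpt2, an inner carnitine palmitoyltransferase of fatty acid oxidation, was listed at 7.2 units on the 10 ECS array, under the floor, against 59.2 in sham, and at 67.5 on the 11 ECS array. The Cpt2 values for both comparisons with the 10 ECS array therefore rest on that 1 reading. Mlxipl, a carbohydrate-responsive factor for lipid genes, read 31.4 units after a single ECS, against 58.2 in sham (-0.65).

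The tissue is a mix of cells, and in bulk RNA fewer cells of a type and less RNA per cell cannot be told apart. Marker genes moved as well. All 5 granule cell markers lay below the median of all genes in 10 ECS over sham (median -0.64) and in 11 ECS over single ECS (median -0.95), and their summed signal was 2080 units after 11 ECS, 2880 after 10 ECS, 4216 after a single ECS and 5536 in sham. Calb1, Tdo2, Dsp and Il1r1, markers of mature granule cells, ranged from -0.97 to -0.41 in 10 ECS over sham. Prox1, which marks granule cells at all ages, read 57.1 units after 10 ECS, against 68.6 in sham (-0.13). Oligodendrocytes make much of the brain's cholesterol. Of 8 of their markers, all above the floor on every array, 6 lay below the median in 10 ECS over sham (median -0.25), with a summed signal of 7710 units after 10 ECS, against 8788 in sham. In 11 ECS over single ECS the same 8 had a median of 0.07. Astrocytes also make sterols, and of their 7 markers 4 lay above the median in 10 ECS over sham (median 0.03), with a summed signal of 10142 units after 10 ECS, against 11472 in sham. All summed signals are as deposited and not centred, and the typical gene also read lower after 10 ECS than in sham (-0.14). Bright genes weigh most in the sums, such as Mbp, with 5089 units in sham, and Aldoc, with 5020. Gfap, a filament of reactive astrocytes, read 114 units after 10 ECS, against 49.3 in sham (1.35), and 135 after 11 ECS, against 45.6 after a single ECS (1.57). Aqp4, an astrocyte water channel, read 1401 units after 10 ECS, against 1076.5 in sham (0.51). The astrocyte markers Slc1a3 (-0.31), Aldoc (-0.18) and Aldh1l1 (-0.13) lay below the median in 10 ECS over sham. Of 7 microglia markers 4 lay above the median in 10 ECS over sham (median 0.04) and 5 in 11 ECS over single ECS (median 0.12). Below it in the latter was Cx3cr1, with 114 units after 11 ECS, against 171.5 after a single ECS (-0.60). Of 5 endothelial markers 3 lay above the median in 10 ECS over sham (median 0.27). Cldn5 read 183.5 units after 10 ECS, against 126 in sham (0.67), while Tek (-0.26) and Flt1 (-0.16) lay below the median. Of 4 measured choroid plexus markers Aqp1 was at or under the floor on every array, Ttr read 103 units after 10 ECS, against 67.2 in sham (0.76), and 216 after a single ECS, and Kl read 26.6 units after 10 ECS, against 74.3 in sham (-1.35). The part of any of these cell types in the sterol ratios was not tested.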

How the data were processed

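RNA of 3 mice a group was pooled, and 100 ng was amplified by 3' in vitro transcription and hybridised, 1 array for each of 4 groups. The deposited values are intensity values, computed by the authors with Microarray Suite 5.0 (MAS5) as 1 linear signal for each probe set. For the scaling of one array to another, no method is given in any source used here. Symbols came from the array's annotation: of 22626 probe sets, besides 64 control probe sets that were left out, 20380 had 1 symbol, 691 several and 1555 none, and only those with 1 symbol were used. The probe set with the highest mean signal stood for its gene. Signals under 12, the 25th percentile, were set to 12, and a gene at 12 on both arrays of a comparison had no value. Log2 ratios were centred on the median of all genes. Genes at least 1.5-fold from it were counted. No test was made, because there was 1 array a group, and the number of arrays limits the precision.

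All 34 listed genes are named. Genes of the other lists are named where they lie at least 1.5-fold from the median in 1 comparison and their brighter signal reaches 4 times the floor, at most 4 per list and comparison. Mbtps1, Prox1, Aqp4, Slc1a3, Aldoc, Aldh1l1, Tek and Flt1 fall outside this rule and were chosen after their values were seen. The members, the other lists and the motifs were chosen with earlier results of these data known. Alternatives were no centring, quantile normalization, floors of 50 or none, the median over probe sets, enzymes alone and limits of 0.32 and 1 on the log2 scale. A background restricted to genes with a mean signal of at least 50 was added after seeing the data. Python 3.11.15, numpy 2.4.6, pandas 2.3.3 and matplotlib 3.10.9 were used, and the calculation was tested on simulated arrays. Promoter windows are from RefSeq (GRCm38.p6).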

Additional observations from a re-analysis of the deposited data

Results flagged for a closer look

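A few probe sets stood out because their ratios pointed in opposite directions, by at least 0.32 on the log2 scale each way, in 2 comparisons that have no array in common. None of these differences was tested. The probe set used for Fdps had 0.37 in single ECS over sham and -0.33 in 11 ECS over 10 ECS, a difference of -0.70. A Scd2 probe set of 207 to 320 units, dimmer than the one used for the gene, had 0.35 and -0.35 in the same comparisons, a difference of -0.69. The dimmest Cyp51 probe set had 0.83 in single ECS over sham and -0.36 in 11 ECS over 10 ECS, a difference of -1.20, and 0.53 in 10 ECS over sham and -0.67 in 11 ECS over single ECS, again a difference of -1.20. That Cyp51 probe set read 16.6 to 26.4 units, close to the floor of 12, while both brighter probe sets of Cyp51 were above 0 in all 4 comparisons.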

How the results depend on the processing

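Of 191 list medians and counts under the alternatives, 155 stayed within the probe set error or within 1.5 times, and 36 did not. Of 636 single-gene values, 620 stayed within the SD between probe sets, 16 moved by more, all with the median over probe sets, and 0 called genes changed sign. Without centring, the sterol medians were 0.023 for single ECS over sham and -0.098 for 11 ECS over 10 ECS. They were 0.32 for 10 ECS over sham and -0.084 for the difference of responses. In the same order the fatty acid medians were -0.067, -0.16, 0.0845 and -0.0945, against -0.24, -0.11, -0.14 and 0.13 over all genes. Counts past 1.5-fold then became 1 sterol gene higher, against 3.05% of all genes, and 1 lower, against 15.3%, in single ECS over sham. In 10 ECS over sham 1 sterol gene was higher, against 2.94%. In single ECS over sham 1 fatty acid gene was lower, against 15.3%. Both arrays with earlier ECS then read above both others in 3 fatty acid genes, against 8.72%, and below them in 1, against 19.4%. With quantile normalization the medians of single ECS over sham were 0.18 for sterol and 0.067 for fatty acid genes, against -0.043 over all genes. With it 10 sterol genes were 1.5-fold higher in 10 ECS over sham, against 4.39% of all genes. With the median over probe sets, the sterol median in 10 ECS over sham was 0.37, 1 sterol gene was higher in 11 ECS over 10 ECS, 1 fatty acid gene in single ECS over sham and 2 in 10 ECS over sham, and 0 sterol genes had both arrays with earlier ECS below both others. No shares over all genes are given for the median over probe sets. Enzymes alone had medians of 0.56 in 10 ECS over sham and 0.28 in 11 ECS over single ECS. At the looser limit, sterol genes numbered 8 higher and 1 lower in single ECS over sham, against 14.2% and 16.7% of all genes. In 11 ECS over 10 ECS they numbered 3 and 2, against 12.8% and 13.7%. In 10 ECS over sham they numbered 13 and 1, against 12.2% and 12.5%. In 11 ECS over single ECS 6 were higher, against 12.6%. Fatty acid genes, against the same shares, numbered 1 lower in single ECS over sham, 1 lower in 11 ECS over 10 ECS and 3 higher in 10 ECS over sham. At 2-fold 0 sterol genes were left in single ECS over sham and in 10 ECS over sham. Of all genes, 206 of 10133 and 99 of 10202 were 2-fold higher there. Among genes with a mean signal of at least 50, the share called 1.5-fold higher in 10 ECS over sham was 1.63% of 7370 genes, in place of 4.75%. No paired analysis was possible because each group has 1 array, and for the same reason no replicate could be left out.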
